A study of Mus musculus with 16 samples.

Results

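The 10 genes described here carry out glyceroneogenesis and the handling of glycerol and pyruvate in fat: Pck1, Pcx, Gpd1, Gpd2, Aqp7, Gk, Mpc1, Mpc2, Pdk4 and Pdk2. They were chosen by name for their function, with earlier results of these data known. Each was looked up by symbol and found once among the 55487 genes of the count table. All 10 were among the 16549 genes with enough counts to be tested. The tissue was inguinal white adipose tissue, the subcutaneous fat of the groin, from male mice 6 to 7 months old. There were 4 groups of 4 libraries: wild-type (WT) mice on chow, Kmo knockout (KO) mice on chow, WT mice on a high-fat diet (HFD) and KO mice on HFD. The knockout was present in the whole body, and the WT mice were littermates. Kmo encodes kynurenine 3-monooxygenase, an enzyme of tryptophan breakdown, and none of the 10 genes belongs to that pathway. Polyadenylated RNA was sequenced, and the composition and duration of the diets are not given in the sources used here.

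An adipocyte stores fatty acids as triglyceride on a backbone of glycerol 3-phosphate. In white fat much of that backbone comes from glucose through dihydroxyacetone phosphate, or, when glucose is scarce, from pyruvate and lactate by glyceroneogenesis: pyruvate carboxylase (Pcx) makes oxaloacetate in the mitochondrion and cytosolic phosphoenolpyruvate carboxykinase (Pck1) turns it into phosphoenolpyruvate, which runs back to dihydroxyacetone phosphate. Cytosolic glycerol 3-phosphate dehydrogenase (Gpd1) then forms glycerol 3-phosphate, while the mitochondrial enzyme (Gpd2) oxidises it again and passes the electrons to the respiratory chain. Glycerol freed by lipolysis leaves through the channel aquaglyceroporin 7 (Aqp7), or is reused by glycerol kinase (Gk), which is scarce in white and richer in brown adipocytes. Pyruvate enters the mitochondrion through a carrier made of Mpc1 and Mpc2, and the kinases Pdk2 and Pdk4 switch off the pyruvate dehydrogenase complex that would burn it.

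The HFD groups differed from the chow groups in some of these genes and not in others. Gpd2, Mpc1 and Pdk2 were lower on HFD in both genotypes, Gk was called higher in WT, and Pdk4 was called lower in KO. Gk had a higher value in KO as well, short of the threshold, and the Pdk4 call was lost in 11 of 16 fits without 1 library. A diet response that differed between genotypes was not shown for any member. Pck1, Pcx, Gpd1 and Mpc2, which include the 3 most abundant of the 10, did not pass the test in either genotype. Aqp7 passed it, as higher on HFD, only over both genotypes together. No member passed it between KO and WT on either diet.

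The promoter windows of 4 genes called between diets (Gpd2, Mpc1, Pdk2 and Gk) and of Pck1, the enzyme best known for glyceroneogenesis, are shown because these genes moved with diet, or define the pathway, while their windows hold different short motifs. RefSeq (GRCm38.p6) gave 14 windows for 9 of the 10 members, all but Gpd1. Each window runs from 250 bases before to 50 bases after a transcript start and is printed in the direction of transcription, and where a gene has several windows the first is shown. Capitals mark exact matches on either strand.
Pck1 (chr2:173152823-173153122, plus strand): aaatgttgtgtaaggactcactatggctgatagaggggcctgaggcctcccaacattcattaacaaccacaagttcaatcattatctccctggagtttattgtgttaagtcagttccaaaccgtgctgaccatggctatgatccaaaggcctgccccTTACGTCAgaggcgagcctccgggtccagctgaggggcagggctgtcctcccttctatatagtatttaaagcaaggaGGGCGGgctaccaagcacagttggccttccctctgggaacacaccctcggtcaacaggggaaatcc
Gpd2 (chr2:57237428-57237727, plus strand): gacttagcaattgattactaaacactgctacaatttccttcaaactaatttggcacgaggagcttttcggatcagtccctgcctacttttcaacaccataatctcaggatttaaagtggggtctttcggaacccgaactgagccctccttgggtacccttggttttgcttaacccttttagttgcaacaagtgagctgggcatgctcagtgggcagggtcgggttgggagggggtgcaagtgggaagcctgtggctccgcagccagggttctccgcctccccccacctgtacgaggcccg
Mpc1 (chr17:8283537-8283836, plus strand): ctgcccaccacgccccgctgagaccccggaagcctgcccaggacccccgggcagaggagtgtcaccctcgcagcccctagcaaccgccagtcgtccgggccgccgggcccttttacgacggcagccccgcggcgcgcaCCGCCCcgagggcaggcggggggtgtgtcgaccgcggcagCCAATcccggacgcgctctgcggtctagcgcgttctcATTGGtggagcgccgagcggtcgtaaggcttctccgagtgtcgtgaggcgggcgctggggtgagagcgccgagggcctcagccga
Pdk2 (chr11:95041322-95041621, minus strand): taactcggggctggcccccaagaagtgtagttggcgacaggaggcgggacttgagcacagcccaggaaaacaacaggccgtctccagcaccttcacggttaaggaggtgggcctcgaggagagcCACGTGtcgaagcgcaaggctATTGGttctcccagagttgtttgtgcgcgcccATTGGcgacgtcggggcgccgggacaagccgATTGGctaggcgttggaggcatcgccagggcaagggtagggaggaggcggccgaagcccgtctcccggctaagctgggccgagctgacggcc
Gk (chrX:85776770-85777069, minus strand): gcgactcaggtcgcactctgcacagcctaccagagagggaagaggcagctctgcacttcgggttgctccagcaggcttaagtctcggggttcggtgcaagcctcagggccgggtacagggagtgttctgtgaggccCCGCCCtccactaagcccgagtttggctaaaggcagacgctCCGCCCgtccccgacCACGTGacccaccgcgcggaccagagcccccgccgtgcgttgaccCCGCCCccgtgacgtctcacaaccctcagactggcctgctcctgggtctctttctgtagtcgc
The search for TTACGTCA, the form of the cyclic AMP response element for which the Pck1 promoter is well known, found it starting 93 bases before the Pck1 transcript start, and 0.499% of the 32851 windows of the same length hold it. The common form of that element, TGACGTCA, is in 1.79% of all windows and in none of the 5 shown. Its core TGACG, which overlaps both forms and was not capitalised alone, is in 20.8% of all windows. Among the windows shown it stood at 90 bases before the Pck1 start, within TTACGTCA on the other strand. It also stood at 43 bases after the Pdk2 start and at 4 bases before the Gk start. The E box CACGTG, present in 7.15% of all windows, stood at 126 bases before the Pdk2 start and at 58 bases before the Gk start. The CCAAT box was matched 3 times for Pdk2 and 2 times for Mpc1, and 37.4% of all windows hold it. The GC box, spelled GGGCGG, was matched 3 times for Gk and 1 time each for Pck1 and Mpc1, and is in 35.7% of all windows. The remaining motifs, matched in none of the 5 windows, were the nuclear receptor motif AGGTCA, held by 16.3% of all windows, and the promoter element TATAAA, held by 13.6%. The Gpd2 window had no capitalised match. These matches are letters in a window and were not tied to binding or to expression here.

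Libraries held between 13824404 and 16909361 counted read pairs, and levels are given in CPM (counts scaled to library size), where 1 CPM stood for 14.1 to 16.5 pairs and every member rested on at least 234 pairs in every library. On chow Kmo was 11 ± 7.27 CPM (SD, n = 4) in WT and 0.259 ± 0.191 in KO, and on HFD 6.66 ± 4.87 in WT and 0.0992 ± 0.0337 in KO, with no overlap of the genotypes. Adipocyte markers (8 genes, Adipoq and Plin1 among them) were high throughout, with a score, the mean log2 CPM of the list, from 10.5 to 11.2 in all 16 libraries. Other cell types varied a great deal. The skeletal muscle score (15 genes) ran from 0.22 to 6.4 and the lymphoid score (12 genes) from 0.202 to 6.01, each within as well as between groups, and epithelial markers (6 genes) summed to at most 3.21 CPM. Scores of macrophage (8 genes), lipid-associated macrophage (6), endothelial (6) and adipose progenitor (6) markers ran from 5.99 to 7.61, 4.73 to 6.26, 5.77 to 6.81 and 6.43 to 8.23. The thermogenic adipocyte score (10 genes, Ucp1 and Cidea among them) moved with diet and is given beside the results it touches.

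Levels were compared between genes per kilobase of exonic length (CPM per kilobase, called the length-scaled level). In WT chow the order was led by Pck1 at 738 ± 238 (SD, n = 4), Gpd1 at 650 ± 174 and Pcx at 303 ± 62.5. Pck1 and Gpd1 overlapped between libraries, and Pcx lay apart from both its neighbours in the order. Aqp7, Mpc1, Pdk4, Gpd2, Mpc2 and Pdk2 followed between 57.3 and 26.5, each overlapping the next. Gk was far below at 2.32 ± 0.251. The order in KO chow had the same 3 genes at the top and Gk at the bottom at 2.43 ± 0.4. On HFD Gpd1 came first and Pck1 second in both genotypes, at 509 ± 92.9 and 469 ± 255 in WT, with overlap between them. Gpd2 had moved to ninth of the 10 in both genotypes, at 6.97 ± 1.37 in WT HFD and 8.27 ± 1.05 in KO HFD, with only Gk below it.

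**Figure D1:**
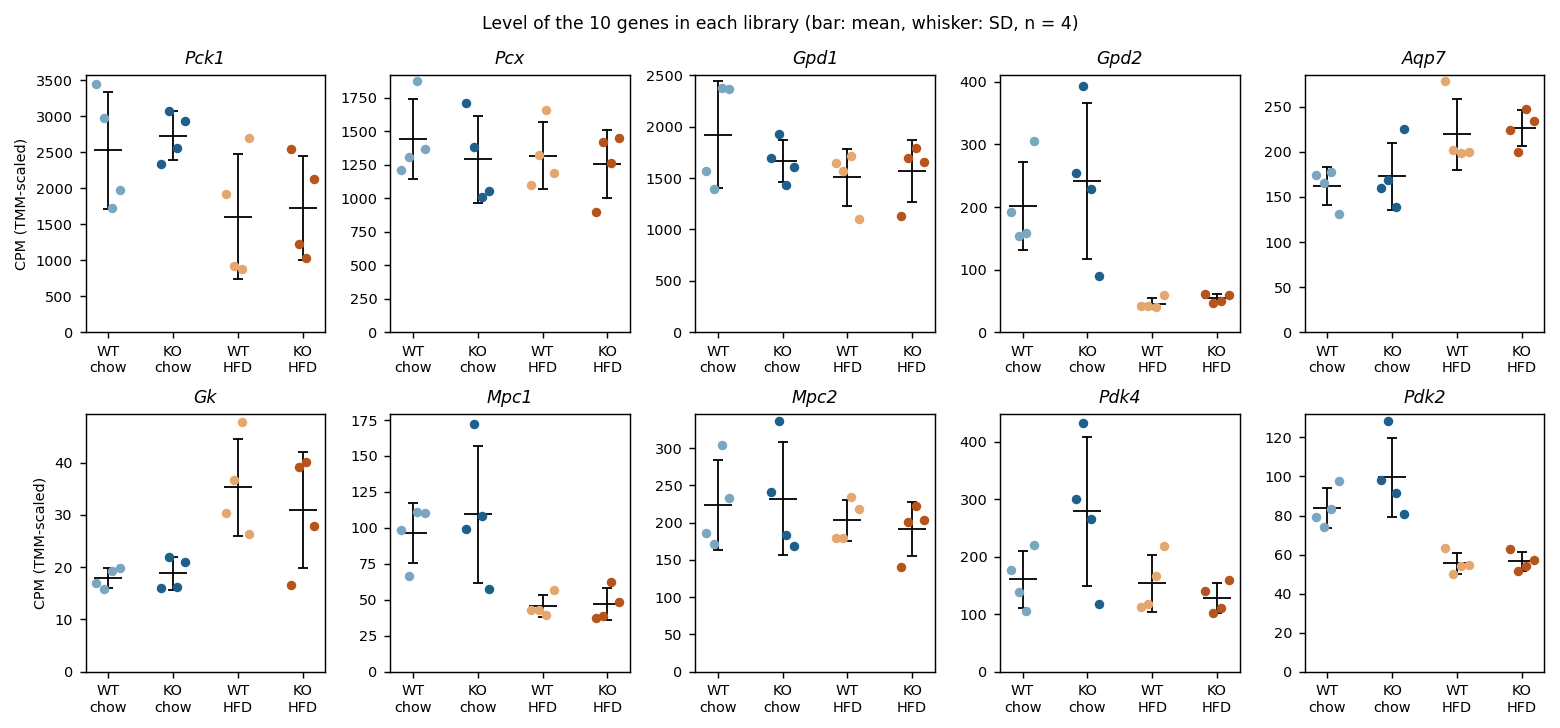
Level of each gene in CPM (vertical axis, from 0, scaled separately for each gene) in the 4 libraries of each group, with the mean and SD. Every HFD library of Gpd2 lies at 60.7 CPM or below and every chow library at 90.2 or above, while the chow and HFD libraries of Pcx, Gpd1 and Mpc2 overlap in both genotypes.

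Diet was examined in each genotype from 1 model over all genes and all 16 libraries (edgeR's quasi-likelihood test, Benjamini-Hochberg adjustment over 16549 genes, threshold 0.05). In WT 4 of 10 members were called, 1 higher and 3 lower on HFD, where 11.8% of all genes were called (6.9% higher and 4.92% lower). In KO 4 of 10 were called, all lower, against 12.5% of all genes (7.28% higher and 5.23% lower). The chow and HFD libraries did not overlap for 5 of 10 members in WT (2 higher and 3 lower on HFD), against 17.4% of all genes (10% higher and 7.43% lower). In KO this held for 2 of 10, both lower, against 18.6% (10.2% higher and 8.47% lower). The median log2 fold change of the 10 members was -0.25 in WT and -0.47 in KO, and that of all genes was -0.034 and -0.0399. With upper-quartile factors the split of all calls turned from 1142 higher and 815 lower to 902 and 1031 in WT, and from 1205 and 866 to 919 and 1113 in KO, while the members called were 4 in each genotype as before. In whole tissue, fewer cells of a type and less RNA per cell cannot be told apart.

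**Figure D2:**
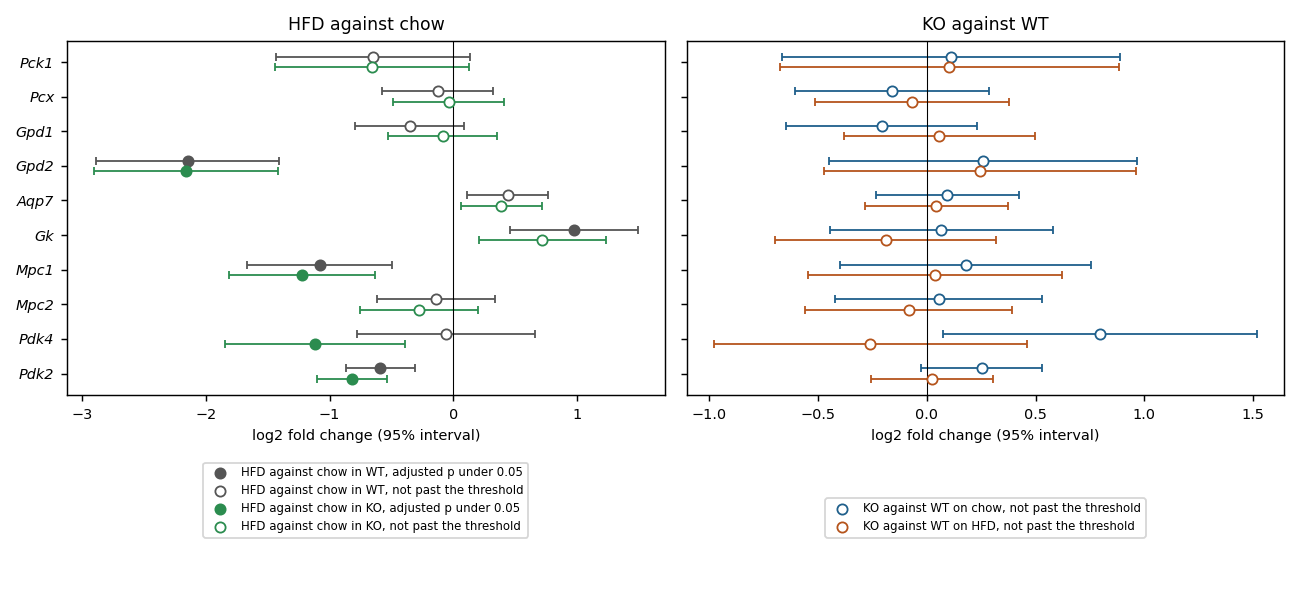
Log2 fold change of each gene with its 95% interval (horizontal axis), for HFD against chow in WT and KO (left) and for KO against WT on chow and on HFD (right). Filled points passed an adjusted p of 0.05: Gpd2, Mpc1, Pdk2 and Gk in WT and Gpd2, Mpc1, Pdk4 and Pdk2 in KO on the left, and none on the right.

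Pck1, on chromosome 2 (173153048 to 173159273, plus strand, GRCm38, as are all gene positions below), turns oxaloacetate into phosphoenolpyruvate on the route from pyruvate to glycerol 3-phosphate. It was measured at 3445, 2971, 1724 and 1976 CPM in the WT chow libraries and at 2338, 3081, 2560 and 2941 CPM in KO chow. On HFD it was 1926, 926, 882 and 2703 CPM in WT and 2541, 1225, 1026 and 2125 CPM in KO. Each HFD group held a pair of libraries between 882 and 1225 CPM and a pair between 1926 and 2703 CPM, and the latter overlapped the chow libraries. The log2 fold change of HFD against chow was -0.65 (SE 0.37, 95% interval -1.43 to 0.13) in WT and -0.66 (SE 0.37, -1.44 to 0.12) in KO, with edgeR adjusted p of 0.254 and 0.243. Over both genotypes it was -0.66 (SE 0.26) with an adjusted p of 0.0641. That value was called in 5 of the 12 settings other than leaving out 1 library, and adjusted p reached 0.3 in the rest. The 5 were upper-quartile factors (adjusted p = 0.0489), DESeq2 (0.0289), limma-voom (0.0169), the replicate number as a block (0.0246) and only the libraries labelled as merged (0.042). It was called in 3 of the 16 fits without 1 library, where edgeR adjusted p reached 0.126. These were the fits without WT HFD replicate 4 (-0.84, edgeR adjusted p = 0.0174), KO HFD replicate 1 (0.0333) or WT chow replicate 3 (0.0472).

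Pcx, on chromosome 19 (4510472 to 4621752, plus strand), supplies the oxaloacetate that Pck1 uses. Chow libraries ran from 1209 to 1876 CPM (WT) and from 1010.1 to 1712 CPM (KO), and HFD libraries from 1097 to 1662 CPM (WT) and from 898 to 1448 CPM (KO). The 4 ranges overlapped, and the log2 fold change with diet was -0.13 (SE 0.21) in WT and -0.04 (SE 0.21) in KO, adjusted p 0.715 and 0.919 (edgeR). The 95% interval of the difference was -0.57 to 0.32 in WT and -0.48 to 0.41 in KO.

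Of the 2 glycerol 3-phosphate dehydrogenases, Gpd2 passed the test for diet and Gpd1 did not, and the difference between them was not tested. Gpd1 makes glycerol 3-phosphate in the cytosol, and its chow libraries ran from 1391 to 2370 CPM (WT) and 1429 to 1929 CPM (KO), its HFD libraries from 1104 to 1713 CPM (WT) and 1127 to 1795 CPM (KO). It did not pass the test, at -0.35 (SE 0.21, adjusted p = 0.274) in WT and -0.09 (SE 0.21, adjusted p = 0.805) in KO by edgeR. Of its exonic bases on chromosome 15 (99717515 to 99725005, plus strand), 13% are shared with Gm16537 on the other strand, and counting ignored strand.

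Gpd2, on chromosome 2 (57237635 to 57370719, plus strand), was the member with the largest difference between diets. It stood at 192, 154, 159 and 305 CPM in WT chow and at 255, 394, 229 and 90.2 CPM in KO chow. On HFD it was 41.4, 41.7, 40.4 and 59.1 CPM in WT and 60.7, 47.2, 49.4 and 59.3 CPM in KO. All 8 HFD libraries lay below all 8 chow libraries, and the lowest chow library, KO chow replicate 4, stood well below the other 7. Gpd2 was 4.43-fold lower in WT (log2 -2.15, SE 0.35, adjusted p = 0.00372) and 4.47-fold lower in KO (log2 -2.16, SE 0.35, adjusted p = 0.00404) by edgeR. In the 16 fits that each left out 1 library the call held in both genotypes, with log2 values from -2.29 to -1.88 in WT and from -2.43 to -1.82 in KO. Of its exonic bases, 7.44% are shared with A930012O16Rik on the other strand.

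The 2 genes that handle glycerol itself, Aqp7 and Gk, had higher values on HFD in both genotypes. Aqp7, on chromosome 4 (41033074 to 41048139, minus strand), is the channel through which adipocytes release glycerol. It was 174, 165, 178 and 131 CPM in WT chow and 159, 168, 139 and 225 CPM in KO chow, against 278, 201, 198 and 200 CPM in WT HFD (199.6 for the last) and 224, 199, 247 and 234 CPM in KO HFD. WT libraries did not overlap between diets, and in KO only KO chow replicate 4 reached the HFD range. The log2 fold change was 0.44 (SE 0.16) in WT and 0.39 (SE 0.16) in KO, short of the threshold at adjusted p of 0.0755 and 0.108, and over both genotypes 0.41 (SE 0.11, adjusted p = 0.0102, edgeR), which was called. That call was lost with only the libraries of a lymphoid score under 4 (0.28, adjusted p = 0.138) and with the thermogenic score as a term (0.01, 0.983), both described with the marker scores. Without KO chow replicate 4 it was called in KO as well (log2 0.54, adjusted p = 0.0215) and in WT (0.0446). No WT library was left out in that fit, and the reason for the WT call was not tested.

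Gk, on the X chromosome (85701937 to 85776819, minus strand), phosphorylates glycerol and was the scarcest member. Its chow libraries were 16.9, 15.8, 19.2 and 19.9 CPM in WT and 16.1, 22, 16.2 and 20.9 CPM in KO. On HFD they were 30.3, 36.6, 47.7 and 26.3 CPM in WT and 16.6, 39.1, 40.2 and 27.8 CPM in KO. All 4 WT HFD libraries lay above all chow libraries, whereas KO HFD replicate 1 stayed within the chow range. Gk rose 1.96-fold in WT (log2 0.97, SE 0.24, adjusted p = 0.0211, edgeR), a call lost without WT HFD replicate 3 (0.79, adjusted p = 0.0741) or WT chow replicate 1 (0.95, 0.0577). In KO the value was 0.72 (SE 0.24, adjusted p = 0.0625), and it was called without KO HFD replicate 1 (0.93, adjusted p = 0.01), with DESeq2 (0.0346) and with limma-voom (0.0338). The test of the difference between genotypes gave -0.26 (SE 0.34, interval -0.98 to 0.47, adjusted p = 1), so a different diet response of Gk in the 2 genotypes was not shown.

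The log2 ratio of Gk to Gpd1 in a library sets the kinase that reuses glycerol against the dehydrogenase that draws on dihydroxyacetone phosphate, from glucose or from pyruvate. Length-scaled, it averaged -8.1 ± 0.245 (SD, n = 4) on chow and -6.82 ± 0.245 on HFD in WT, and -7.86 ± 0.187 on chow and -7.11 ± 0.317 on HFD in KO. HFD and chow libraries did not overlap in either genotype. The differences of 1.28 in WT and 0.75 in KO each had the smallest exact two-sided permutation p that 4 against 4 libraries allow, 0.0286, which became 0.171 after adjustment over the 12 ratio comparisons made.

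The mitochondrial pyruvate carrier needs both its subunits, and Mpc1 passed the test for diet while Mpc2 did not. Mpc1, on chromosome 17 (8282904 to 8297661, plus strand), was 98.5, 66.8, 111 and 110.05 CPM in WT chow and 99.4, 172, 108 and 57.2 CPM in KO chow. On HFD it was 43.2, 42.9, 39.4 and 57.1 CPM in WT and 37.7, 39, 62.2 and 48.7 CPM in KO. All WT HFD libraries lay below all WT chow libraries, and in KO a single pair of libraries crossed, KO chow replicate 4 and KO HFD replicate 3. Mpc1 fell by 1.08 on the log2 scale in WT (SE 0.28, adjusted p = 0.0235) and by 1.22 in KO (SE 0.28, adjusted p = 0.0138), by edgeR. The WT call was lost in 5 of the 16 fits without 1 library (without WT chow replicate 1 or 4 or WT HFD replicate 1, 2 or 3, adjusted p up to 0.0763), with the replicate number as a block (0.0569) and with no filter on low counts (-1.06, 0.0631). The KO call was lost without KO HFD replicate 2 (0.0517) and with only lymphoid scores under 4 (-1.2, 0.118), a set of libraries described with the marker scores. Of the exonic bases of Mpc1, 23.1% are shared with 4930506C21Rik on the other strand.

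Mpc2, on chromosome 1 (165460637 to 165481214, plus strand), ran on chow from 172 to 305 CPM (WT) and 168 to 336 CPM (KO), and on HFD from 179 to 234 CPM (WT) and 139.98 to 222 CPM (KO). The ranges overlapped in both genotypes. Its log2 fold change with diet was -0.14 (SE 0.22, adjusted p = 0.707) in WT and -0.28 (SE 0.22, adjusted p = 0.426) in KO by edgeR. Whether Mpc1 and Mpc2 differed from each other in their response was not tested.

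Pdk2 and Pdk4 encode kinases that inactivate pyruvate dehydrogenase, Pdk2 broadly expressed and Pdk4 known to be induced by fasting and fatty acids. Pdk2, on chromosome 11 (95026258 to 95041354, minus strand), was 79.4, 73.9, 83.6 and 97.8 CPM in WT chow and 97.9, 128, 91.7 and 80.7 CPM in KO chow. On HFD it was 63.1, 50.2, 54.1 and 54.9 CPM in WT and 62.9, 51.6, 54 and 57.4 CPM in KO. No HFD library reached any chow library. Pdk2 fell by 0.59 on the log2 scale in WT (SE 0.13, adjusted p = 0.0126) and by 0.82 in KO (SE 0.13, adjusted p = 0.00389), by edgeR, and both calls held in all 16 fits without 1 library, at adjusted p of up to 0.0457 and 0.0212.

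Pdk4, on chromosome 6 (5483351 to 5496309, minus strand), followed a different pattern. It was 177, 139, 106 and 219.8 CPM in WT chow and 299.7, 432, 266 and 117 CPM in KO chow. In WT HFD it was 113, 117, 166 and 219 CPM and in KO HFD 140.5, 102.1, 111 and 160.1 CPM. KO chow replicates 1, 2 and 3 stood above the other 13, and KO chow replicate 4 lay among the HFD libraries. It was 2.17-fold lower on HFD in KO (log2 -1.12, SE 0.34, adjusted p = 0.0448, edgeR) and it was at -0.06 in WT (SE 0.34, adjusted p = 0.922). The KO call was lost in 11 of the 16 fits without 1 library, the lowest size being -0.82 without KO chow replicate 2 (adjusted p = 0.14), and the direction was the same in all 16. It was also lost with no filter on low counts (0.121), with the replicate block (0.0838), with only the 8 KO libraries (0.0775), with the lymphoid score as a term (0.0705), with only merged libraries (0.0828), with lymphoid scores under 4 (0.223) and with muscle scores under 5 (0.053). With the thermogenic score as a term it turned to 0.17 (0.966), and the call held in 5 of the 13 settings other than leaving out 1 library.

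Among the 4 pyruvate dehydrogenase kinase genes, Pdk4 made up 51.8 ± 6.27% (SD, n = 4) of the summed length-scaled level on chow and 62.7 ± 7.57% on HFD in WT, and 60.7 ± 7.37% on chow and 58.9 ± 3.57% on HFD in KO. Pdk2 was second with 26.4% to 31%, and Pdk3 was lowest at 2.6% to 5.35%. Pdk1, a kinase known as a target of hypoxia signalling, went from 13.3 ± 0.663% to 6.58 ± 1.17% in WT and from 9.88 ± 1.81% to 6.66 ± 1.12% in KO. The share of Pdk4 did not differ beyond the spread in any of 4 comparisons (exact permutation p from 0.0857 to 0.657, 0.206 to 0.657 after adjustment over 12). The log2 ratio of Pcx to Pdha1, which sets carboxylation against oxidation of pyruvate, averaged 1.15 ± 0.279 on chow and 1.74 ± 0.294 on HFD in WT, and 0.938 ± 0.439 and 1.6 ± 0.185 in KO. HFD was higher by 0.59 in WT and 0.66 in KO with exact permutation p of 0.0571 each, 0.171 after adjustment, and 1 or more libraries overlapped in each genotype.

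**Figure D3:**
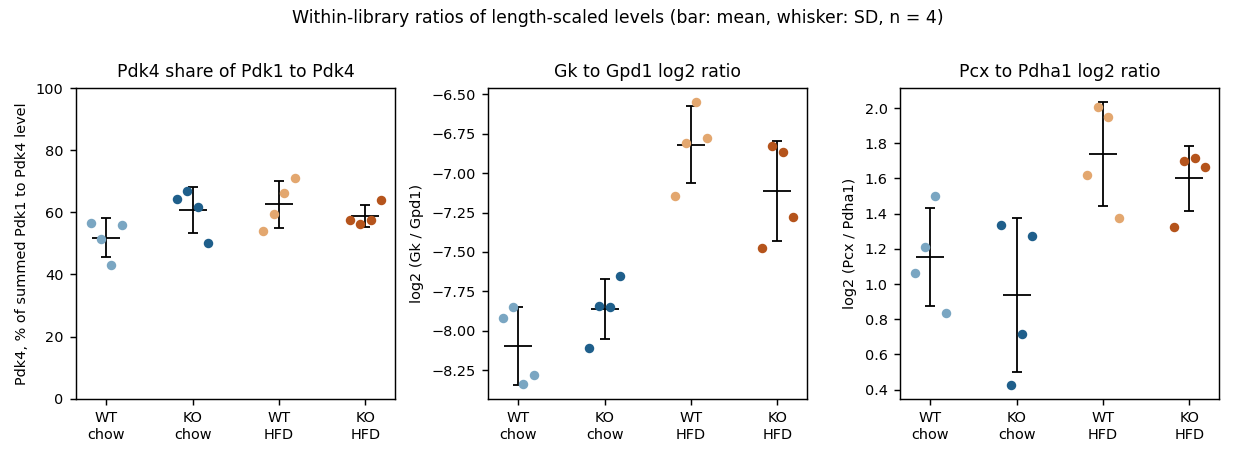
Ratios within each library: the share of Pdk4 among the 4 kinase genes in percent (left), log2 Gk over Gpd1 (middle) and log2 Pcx over Pdha1 (right), each from length-scaled levels, with mean and SD per group. The Gk to Gpd1 ratio separates the diets in both genotypes, from -8.33 to -7.65 on chow and from -7.47 to -6.55 on HFD, and the Pdk4 share overlaps between all groups.

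Markers of thermogenic adipocytes were lower on HFD together with Gpd2, Mpc1 and Pdk2. The thermogenic score went from 3.89 ± 0.715 (SD, n = 4) on chow to 2.51 ± 0.33 on HFD in WT and from 4.48 ± 0.77 to 2.62 ± 0.467 in KO, and no HFD library reached a chow library. The summed level of the 10 markers was 262 to 885 CPM on chow and 97.5 to 169 CPM on HFD, with no marker at 0 in any library, and 5 of 10 markers were called lower in each genotype (Ucp1, Cidea, Cox7a1, Cox8b and Ppara). With this score as a term in the model, an alternative added after the data were seen, 0 of 10 members were called in WT, in KO or over both genotypes, and of all genes 32, 3 and 43 were called. Gpd2 was then at -1.2 (adjusted p = 0.126) in WT and -0.79 (0.63) in KO, Mpc1 at -0.4 and -0.23, Pdk2 at -0.36 and -0.51, and Gk at 1.33 (0.0813) in WT. Since the score itself separates the diets, its part and that of diet cannot be told apart in these groups.

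Lymphoid and muscle marker levels and the sequencing labels also varied with the libraries. The lymphoid score averaged 3.68 and 3.46 on chow and 2.05 and 1.97 on HFD (WT and KO), while the summed level of its 12 markers ran from 349 to 1391 CPM on chow and from 865 to 1845 CPM on HFD, with none at 0, and 1 of the 12 was called, as higher, in each genotype. The muscle score averaged 3.57 and 2.54 on chow and 3.95 and 2.44 on HFD, and its 15 markers summed to 99.7 to 5995 CPM on chow and 135 to 2698 CPM on HFD. With either score as a term, 4 of 10 members were called in WT as before, and 4 (muscle) or 3 (lymphoid) in KO. With only the 10 libraries of a lymphoid score under 4, which left 2 per chow group and 3 per HFD group, 0 members were called in WT and 2 in KO (Gpd2 and Pdk2), and all calls were 625 and 768, against 1957 and 2071 with all 16 libraries. With only the 14 libraries of a muscle score under 5 the members called were 1 in WT (Gpd2) and 3 in KO (Gpd2, Mpc1 and Pdk2), with 953 and 1935 genes called in all. The labels mark 12 libraries as merged and 4 with 1 lane, without saying what was merged. With only the 12 merged libraries the members called were 0 in WT, where WT HFD kept 2 libraries and 225 genes were called in all. They were 4 in KO, where 1753 were called. These 4 were Gpd2, Mpc1, Pdk2 and Gk, so that Pdk4 was lost and Gk gained. In these smaller sets Gpd2 was at -1.91 (edgeR adjusted p = 0.075) and -2.38 (0.0548) in WT for the lymphoid and merged sets.

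Over both genotypes together, a contrast that uses the same libraries again and is no independent result, 5 of 10 members were called, 2 higher and 3 lower, where 33.1% of all genes were called (17.1% higher and 16% lower). Gpd2 was at -2.15 (SE 0.24, adjusted p = 7.7e-05), Mpc1 at -1.15 (SE 0.2, 0.000752), Pdk2 at -0.71 (SE 0.09, 0.000145), Gk at 0.85 (SE 0.17, 0.00206) and Aqp7 at 0.41, by edgeR. Pdk4 was at -0.59 (SE 0.24, adjusted p = 0.0703). It was called with DESeq2 (-0.6, adjusted p = 0.0363) and, by edgeR, without KO chow replicate 4 (-0.72, 0.0106), WT HFD replicate 4 (-0.7, 0.0409) or WT chow replicate 3 (-0.67, 0.0456). The 8 chow and 8 HFD libraries did not overlap for Gpd2 and Pdk2, both lower, and for 6.85% of all genes (4.33% higher and 2.53% lower). With upper-quartile factors all calls over both genotypes were 2309 higher and 3298 lower, against 2827 and 2644.

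The knockout was compared with WT on each diet. None of the 10 members was called on chow or on HFD, where Kmo was the single called gene (0.00604% of genes on each diet), and none on the mean of both diets. At an unadjusted edgeR p under 0.05 there was 1 member on chow (Pdk4) and 0 on HFD, among 166 and 188 of all genes. DESeq2 and limma-voom called 0 members. Of all genes DESeq2 called 1 on each diet and limma-voom 0. Since limma-voom did not call Kmo either, its 0 for the members cannot show that they were unchanged. No member was without overlap between genotypes on either diet, against 0.556% of all genes on chow (0.26% higher and 0.296% lower in KO) and 1.42% on HFD (0.858% higher and 0.562% lower). The 8 libraries of WT serve as reference here and enter the diet comparison in WT as well, so the 2 sets of values are not independent.

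Pdk4 had the largest genotype difference of the 10, on chow. Its KO libraries were 299.7, 432, 266 and 117 CPM and its WT libraries 177, 139, 106 and 219.8 CPM, so 3 of 4 KO libraries exceeded every WT library. The log2 difference was 0.8 (SE 0.34, 95% interval 0.08 to 1.52, edgeR unadjusted p = 0.0327, adjusted p = 1), and it ran from 0.5 without KO chow replicate 2 to 1.05 without KO chow replicate 4. On HFD it was -0.26 (SE 0.34, -0.98 to 0.46). The interaction, the diet response in KO less that in WT, was -1.06 for Pdk4 (SE 0.48, interval -2.08 to -0.04, unadjusted p = 0.0429, adjusted p = 1). No gene of 16549 was called in the interaction by edgeR, DESeq2 or limma-voom, 187 had an unadjusted edgeR p under 0.05, and Pdk4 was the only member among them. In the authors' deposited table Pdk4 on chow had a p of 0.0261 and an adjusted p of 1, and the other members had an adjusted p of 1 on both diets.

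For the other 9 members the genotype difference on chow lay between -0.21 (Gpd1) and 0.26 (Gpd2), and on HFD between -0.19 (Gk) and 0.25 (Gpd2). Their 95% intervals show what was not detectable with 4 libraries a group. For Aqp7 on chow the interval was -0.23 to 0.42, among the narrowest, and for Pck1 it was -0.67 to 0.89, the widest. For Gpd2 it was -0.45 to 0.96. Over both diets the intervals were narrower, for example -0.06 to 0.34 for Pdk2 and -0.16 to 0.3 for Aqp7. For the skeletal muscle markers, 11 of 14 tested had values below 0 for KO against WT on chow (median log2 difference -1.62, with Myh1 at 1.38 and Mb at 1.035 above 0) and 14 of 14 on HFD (median -1.99), and 0 of 14 were called on either diet. With the muscle score as a term 0 members were called on either diet.

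Members were also compared for how they varied among libraries of 1 group. After each group's mean was subtracted from the log2 CPM, 45 pairs of members were correlated over the 16 libraries, with permutations within groups (100000 draws, two-sided) and adjustment over the 45 pairs. Of these, 2 pairs passed in both Pearson's r and Spearman's rho. Gpd2 and Pdk4 had r = 0.924 (permutation p = 0.00018, adjusted 0.0081) and rho = 0.841 (permutation p = 0.0006, adjusted 0.0229), and r = 0.832 without the 2 libraries farthest out, KO chow replicates 2 and 4. Gpd1 and Gk had r = 0.747 (permutation p = 0.0004, adjusted 0.009) and rho = 0.721 (permutation p = 0.00102, adjusted 0.0229), and r = 0.576 without KO HFD replicate 1 and WT HFD replicate 4. The values of 1 library share its normalisation factor and are relative to each other.

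Pck1 had negative values against several members. Its r was -0.744 with Gk, -0.703 with Gpd1 and -0.582 with Pcx, none of which passed the adjustment (0.0645, 0.0645 and 0.0822). Pcx and Mpc2 (r = 0.761) and Mpc1 and Mpc2 (r = 0.744), the 2 subunits of 1 carrier, had an adjusted p of 0.0645 each. Gpd2, Mpc1 and Pdk2 had positive r in pairs (from 0.643 to 0.792), none of which passed the adjustment (permutation, adjusted p from 0.0645 to 0.162). Without KO chow replicates 2 and 4 Mpc1 with Pdk2 was at 0.209 and Mpc1 with Gpd2 at 0.406, so those relations rested on these 2 libraries. KO chow replicate 4 had the lowest thermogenic score of its group (3.47) and replicate 2 the highest (5.35). Of 40 relations of members with marker scores, 0 passed adjustment, the largest being Gpd2 with the thermogenic score (r = 0.753, permutation p = 0.016, adjusted 0.258, rho = 0.479, permutation p = 0.103, and r = 0.537 without KO chow replicate 4 and WT chow replicate 4).

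**Figure D4:**
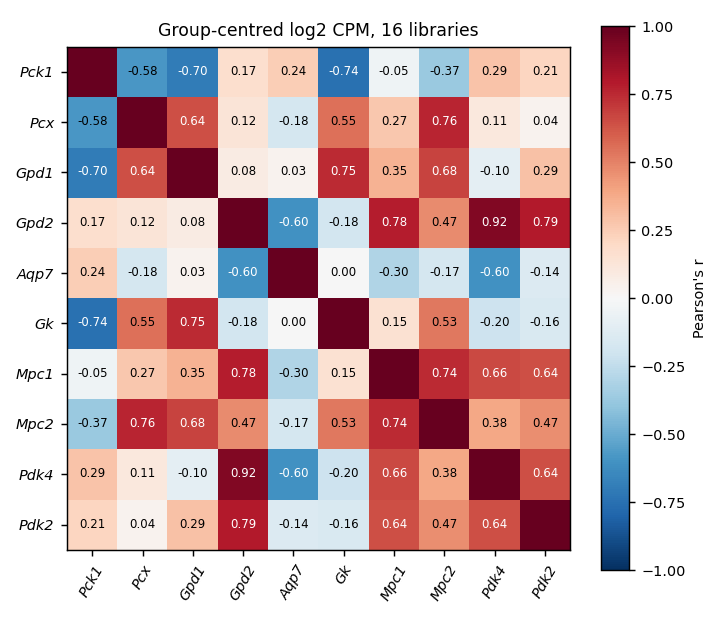
Pearson's r between each pair of the 10 genes over 16 libraries after subtraction of the group means (colour scale from -1 to 1). Gpd2 and Pdk4 stand out at 0.92, and the row of Pck1 is negative against Gk (-0.74), Gpd1 (-0.70) and Pcx (-0.58).

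The genes most like 3 of the members were found by the same group-centred r among 14523 genes with a mean of at least 1 CPM, as a description over 16 libraries. For Pck1 they were Pygo1 (0.945), Nnat (0.935) and Sctr (0.924). For Pcx they were Pmvk (0.909), an enzyme of the mevalonate pathway, Rims4 (0.908) and Acss2 (0.906), which makes cytosolic acetyl-CoA from acetate. For Pdk4 they were Acacb (0.93), the acetyl-CoA carboxylase of the mitochondrial surface, its fellow member Gpd2 (0.924) and Gpx8 (0.917).

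Around the 10 members, 62 genes of 6 related lists were read from the same fit, of which 61 were tested. In WT 3 were called higher and 10 lower on HFD, and in KO 1 higher and 9 lower, with median log2 fold changes of -0.15 and -0.11. The share of all genes called was 11.8% in WT (6.9% higher and 4.92% lower) and 12.5% in KO (7.28% higher and 5.23% lower). Over both genotypes 4 were called higher and 18 lower, that is 22 of 61. Of all genes 33.1% were called there (17.1% higher and 16% lower). The total of both directions lies near that share, and most of the 22 were lower. With upper-quartile factors all calls were 2309 higher and 3298 lower. The lists were chosen with earlier results of these data known, so the split was not read as a result about them. The pyruvate dehydrogenase complex and its phosphatases had 2 of 8 called lower in WT and 3 of 8 in KO, and none higher. Pdha1 and Pdhb encode the catalytic E1 subunits. Pdhb was at -0.94 in WT and -0.97 in KO (adjusted p 0.0155 and 0.013), Pdha1 at -0.71 and -0.75 (0.0364 and 0.0282), and the phosphatase Pdp2, which reactivates the complex, at -0.76 (0.0553, not called) and -1.09 (0.0135), by edgeR.

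Of 9 isoforms and relatives of the members, 2 were called lower in each genotype and none higher. Pdk1 was at -1.39 in WT and -1.63 in KO (adjusted p 0.00979 and 0.00566), and Aqp11, an aquaporin of the endoplasmic reticulum, at -0.89 and -0.94 (0.0288 and 0.0228). Of 8 tested genes of lactate and pyruvate production and transport, WT had 1 called higher and 2 lower and KO had 1 lower. Pkm, the pyruvate kinase of muscle and fat, was at -0.72 and -0.86 (0.0363 and 0.0171), Ldhb, a lactate dehydrogenase subunit, at -0.61 (0.0423) in WT, and Slc16a1, a monocarboxylate transporter, at 0.86 (0.0327) in WT.

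The malate, aspartate and citrate shuttles (13 genes) had 1 call in WT, Slc25a13, an aspartate-glutamate carrier, at 1.13 (adjusted p = 0.041), and 0 in KO, where 2 of 13 had an unadjusted p under 0.05 by edgeR. Among 6 genes that use glycerol 3-phosphate or release glycerol, Mgll, monoglyceride lipase, was the single call in each genotype, at 0.65 in both (adjusted p 0.0213 and 0.0195). Of 17 transcription factors and coregulators known for Pck1 or Pdk4, 4 were called lower in WT and 3 in KO, and none higher. Ppara, a receptor for fatty acids that is also in the thermogenic list, was at -1.65 and -1.47 (0.00144 and 0.00218), Mlxipl, the carbohydrate response factor ChREBP, at -1.37 and -1.23 (0.00734 and 0.0109), Ppargc1b, a mitochondrial coactivator, at -0.84 and -0.71 (0.0111 and 0.0221), and Srebf1, a factor of lipid synthesis, at -0.61 (0.0232) in WT. Between genotypes 0 of the 61 were called on either diet by edgeR, and 0 had an unadjusted p under 0.05 on chow and 2 on HFD.

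**Figure D5:**
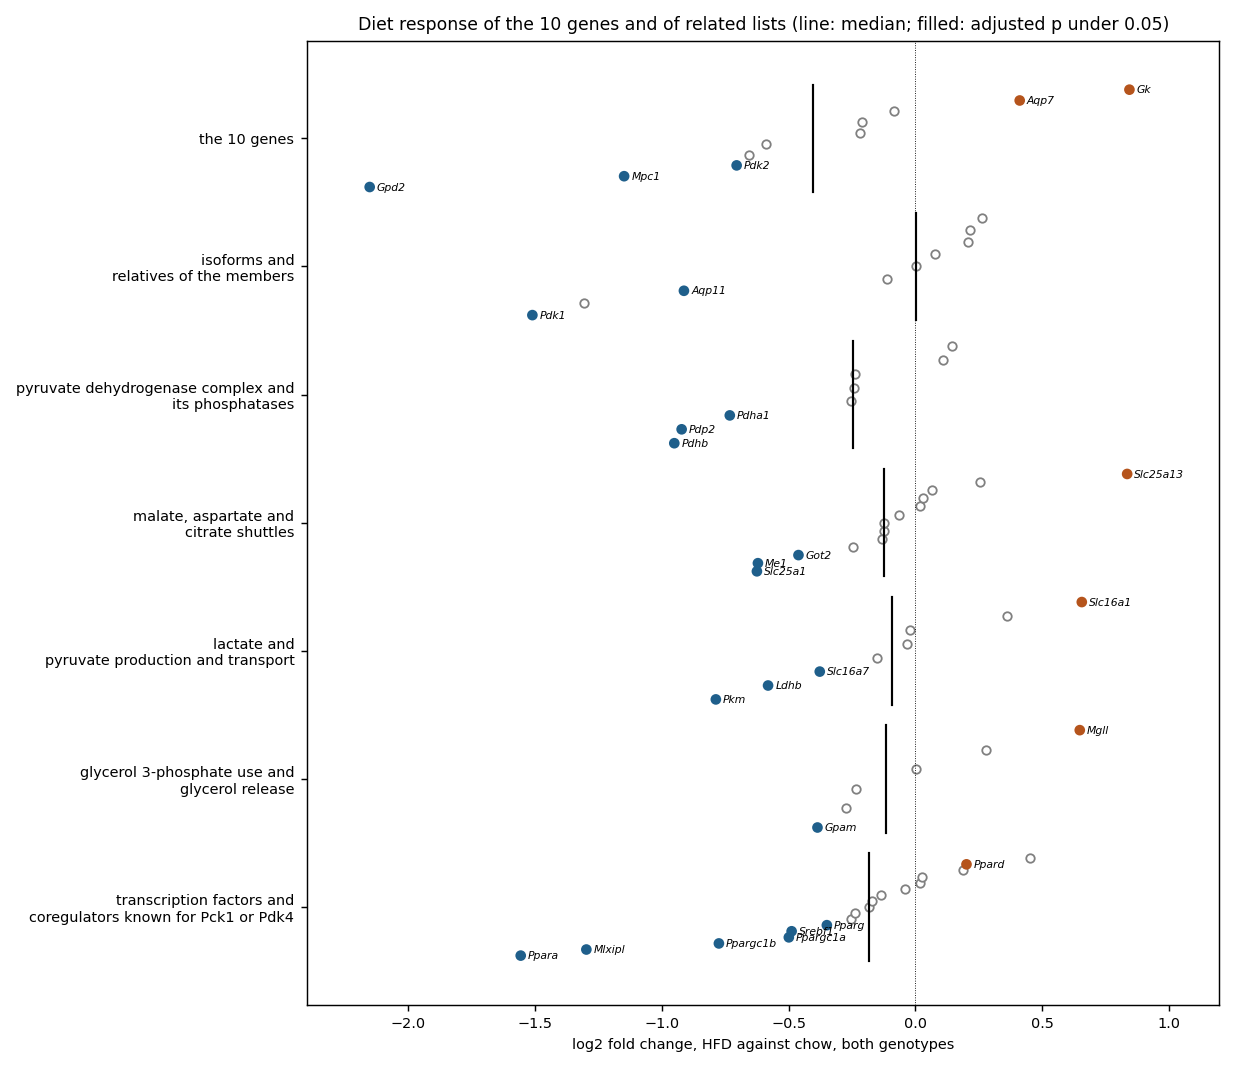
Log2 fold change of HFD against chow over both genotypes (horizontal axis) for the 10 genes and the 6 related lists, 1 point per tested gene, with the median as a line. Filled points passed an adjusted p of 0.05 (edgeR): blue points are lower on HFD, orange points higher, and Gpd2 at -2.15 is the lowest of all points shown.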

How the data were processed

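The study sequenced polyadenylated RNA of 16 mouse libraries. Reads were aligned with STAR 2.7.3a and counted with featureCounts 2.0.3 without regard to strand against Ensembl 102 on GRCm38, per the submitters' processing notes and the file headers. The deposited counts are whole read pairs per gene, not normalised. The authors' tables of KO against WT hold shrunken log2 fold changes and p-values from DESeq2, per the file headers, and were used for symbols and 1 comparison. All value columns were mapped to a sample.

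Counts were fitted with edgeR 4.0.16 (limma 3.58.1, R 4.3.3): TMM factors, filterByExpr, robust quasi-likelihood fit of 4 group means, Benjamini-Hochberg adjustment over all tested genes, threshold 0.05, no minimum fold. Scripts were tested on simulated data. CPM used TMM factors, log2 CPM a prior count of 2. Ratios were compared by exact two-sided permutation, and correlations with 100000 permutations within groups (scipy 1.17.1). Promoter windows came from RefSeq. All 10 members were named, with pathway genes where called. Alternatives were other factors, no filter, DESeq2 1.42.0, limma-voom, a replicate block, marker scores as covariates, fewer libraries and leaving out each library. Those for libraries labelled as merged, the thermogenic score and score limits were chosen after seeing the data. The members and lists were chosen with earlier results of these data known. Replicates are separate animals only as far as the labels number them, so p-values measure the spread between these libraries.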

Additional observations from a re-analysis of the deposited data

Results flagged for a closer look

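Of 52 groups of 4 values examined, 3 held a library standing far from the others, where chance gives about 1 in 20 groups. Gpd2 in WT HFD replicate 4 was 59.1 CPM, against 40.4 to 41.7 CPM in the other 3 libraries of that group, and was still below every chow library. Aqp7 in WT HFD replicate 1 was 278 CPM, against 198 to 201 CPM in the others. The log2 ratio of Pcx to Pdha1 in KO HFD replicate 1 was 1.33, against 1.67 to 1.72 in the others, and that same library had the lowest Gk of the HFD libraries at 16.6 CPM.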

How the results depend on the processing

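The number of members called was 0 in every KO against WT comparison and in the interaction under all settings run. Some of these settings called 0 of all genes on each diet, and so missed Kmo as well. They were limma-voom, no filter, only the 8 libraries compared, only merged libraries and only lymphoid scores under 4. For diet in WT (4 in the full analysis, with 1957 of all genes) it was 0 with only merged libraries and 0 with the thermogenic score as a term. It was 0 with only lymphoid scores under 4, 1 with only muscle scores under 5, and 2 to 5 when 1 library was left out. All calls in WT were then 225, 32, 625 and 953, in that order, and 689 to 2400 when 1 library was left out. In KO (4, with 2071 of all genes) it was 0 with the thermogenic score and 2 with lymphoid scores under 4, and 2 to 5 when 1 library was left out. All calls in KO were then 3 and 768, in that order, and 745 to 2714 when 1 library was left out. Over both genotypes (5, with 5471 of all genes) it was 0 with the thermogenic score, where 43 of all genes were called. Fewer libraries leave fewer degrees of freedom, and for the thermogenic score the cause was not tested.

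Same-numbered replicates of different groups had correlations of -0.69 to 0.55. With 4 libraries a group these values cannot show whether the numbers pair the samples, and the main model did not pair them. With the replicate number as a block, 3 members were called in WT, 3 in KO and 6 over both genotypes, and all calls went from 1957 to 1050 in WT and from 2071 to 1126 in KO. All calls were 1245 in WT and 1284 in KO without a filter.

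Log2 fold changes of uncalled members, and of Pdk4 in KO, changed sign as follows. KO against WT on chow: with merged libraries Mpc2 was -0.054, with the thermogenic score Gpd2 was -0.20, Gk -0.079, Mpc1 -0.20 and Mpc2 -0.21, and with muscle scores under 5 Pck1 was -0.034. KO against WT on HFD: with the muscle score Pcx was 0.001, Mpc1 -0.059 and Pdk2 -0.019, and with the thermogenic score Mpc1 was -0.031. With merged libraries Pcx was 0.18, Aqp7 -0.084, Gk 0.086, Mpc2 0.21, Pdk4 0.11 and Pdk2 -0.066. With lymphoid scores under 4 Pck1 was -0.33, Pcx 0.067, Gk 0.04 and Pdk2 -0.077, and with muscle scores under 5 Pck1 was -0.10, Pcx 0.062, Aqp7 -0.002 and Mpc1 -0.025. Diet in WT: Pdk4 was 0.042 with the lymphoid score and 0.21 with lymphoid scores under 4, and with the thermogenic score Pcx was 0.14, Mpc2 0.33 and Pdk4 0.79. Diet in KO: Pcx was 0.043 with limma-voom, 0.10 with merged libraries and 0.17 with lymphoid scores under 4, Gpd1 was 0.05 with merged libraries, and with the thermogenic score Pcx was 0.34, Gpd1 0.33, Aqp7 -0.067, Mpc2 0.41 and Pdk4 0.17. Both genotypes: Pcx was 0.007 with limma-voom, and with the thermogenic score Pcx was 0.24, Gpd1 0.15, Mpc2 0.37 and Pdk4 0.48. From raw counts the Pdk4 share differed with diet by 13.97 points in WT (exact permutation p = 0.0286, unadjusted) and by 0.90 in KO.

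Leaving out 1 library turned these signs. On chow, KO against WT, Pck1 ran from -0.034 to 0.29, Gpd2 from -0.082 to 0.53, Aqp7 from -0.060 to 0.19, Gk from -0.019 to 0.13, Mpc1 from -0.13 to 0.39 and Mpc2 from -0.18 to 0.24. On HFD Pck1 ran from -0.14 to 0.47, Pcx from -0.16 to 0.062, Gpd1 from -0.065 to 0.19, Aqp7 from -0.002 to 0.17, Gk from -0.34 to 0.019, Mpc1 from -0.13 to 0.17, Mpc2 from -0.16 to 0.040 and Pdk2 from -0.033 to 0.083. For diet in WT, Pcx ran from -0.26 to 0.026, Mpc2 from -0.25 to 0.047 and Pdk4 from -0.28 to 0.13, in KO Pcx from -0.14 to 0.13 and Gpd1 from -0.16 to 0.045, and over both genotypes Pcx from -0.15 to 0.001. The Pdk4 share in KO ran from -5.43 to 0.13 points. Every member rested on at least 234 read pairs per library, with 4 libraries a group, and what sets the precision was not tested.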
